A study of Rattus norvegicus with 6 samples.

Results

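Neutrophils and monocytes carry surface receptors that read chemokines, bacterial peptides and the vessel wall. The set examined here was chosen by gene name and comprised 9 genes, namely Cxcr1, Cxcr2, Ccr1, Ccr2, Cx3cr1, Fpr1, Itgam, Itgb2 and Trem1, in a table of 32623 rat genes. The expression of Ccr2 was not analysed here, and the other 8 had a row in the table. Of these, 7 had a count in at least 1 sample and 6 reached the minimum mean FPKM of 0.5 over the 6 samples that was set for testing. FPKM is the read count scaled by gene length and library size.

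RNA of myocardial tissue was sequenced from wild-type male rats. The ischemia group comprised 3 samples taken after ligation of the left anterior descending (LAD) artery of the heart, with a time of 30 min in their titles and the chest opened on the left. The sham group comprised 3 samples whose titles carry the same time of 30 min and for which no ligation was described. All rats were anesthetized and ventilated, the strain and age were not given in the labels, and the samples of each group were numbered 1 to 3.

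Chemokine receptors and the formyl peptide receptor are coupled to inhibitory G proteins and direct leukocyte movement along a gradient. The integrin made of the Itgam and Itgb2 chains, Mac-1, holds leukocytes to Icam1 on activated endothelium and binds complement fragments. Trem1 signals through the adaptor Tyrobp and amplifies responses to microbial products. Cxcr2 and Trem1 are known mainly from neutrophils, Ccr2 and Cx3cr1 from subsets of monocytes and macrophages, and Itgb2 from leukocytes in general.

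The libraries held 68529126 to 79591989 counts each, at which 3 counts correspond to 0.0377 to 0.0438 CPM, the count scaled to the library total. Markers of cardiomyocytes were abundant in every library, with a summed FPKM of 5346 to 18798. Ischemia replicate 2 had the highest level of each of the 6 tested receptors. Sham replicate 1 had 26 counts over 3 Y-linked genes, where the remaining libraries had 1772 to 4318, although the rats were described as male. No gene passed the test without sham replicate 1, and values without ischemia replicate 2 are given beside the main results. Since bulk tissue was sequenced, more cells of a type and more RNA per cell cannot be told apart in the values that follow.

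The comparison of ischemia with sham asked whether the mRNA of these receptors changed in the tissue. With the quasi-likelihood test of edgeR, Trem1, Cxcr2, Ccr1, Itgb2 and Itgam rose in ischemia and Cx3cr1 did not pass an adjusted p of 0.05. The same test called 5.18% of 13964 genes higher. Cxcr2 and Trem1 reached the minimum for testing only through the ischemia libraries, so their inclusion was not independent of the difference. The other 4 tested receptors reached it in sham alone, and 3 of these rose. All 5 receptors that rose had ischemia values above every sham value, as did 23.6% of all tested genes. Leaving out certain libraries removed the calls over the whole table, not only those of the receptors. No gene of the table passed without sham replicate 1, sham replicate 2, sham replicate 3 or ischemia replicate 3, and the count of receptors that passed was then 0, although 5, 5, 6 and 5 of the 6 receptors had an unadjusted p under 0.05. Without ischemia replicate 1 or ischemia replicate 2 the same number of receptors passed as with all samples, 5.

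**Figure D1:**
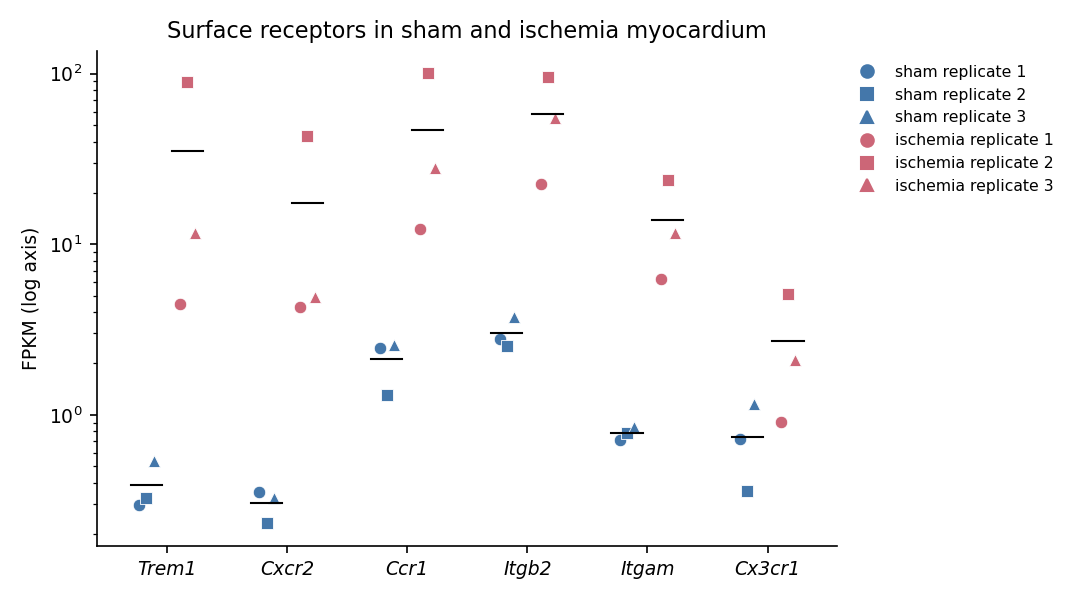
FPKM of the 6 tested receptors on a log axis, with 1 point per sample and a bar at the mean of each group of 3. Apart from Cx3cr1, the ischemia points lie above all sham points, and the highest point of each gene is ischemia replicate 2.

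Cxcr2 encodes the receptor for the neutrophil-attracting CXC chemokines and lies at chr9:81427730-81434102 (plus strand) in the coordinates of the table, whose build was not given in the sources used here. In the order of the replicate numbers, its FPKM was 0.352, 0.232 and 0.327 for sham and 4.27, 42.9 and 4.91 for ischemia. The groups did not overlap, and the lowest ischemia library lay 12.1-fold above the highest sham library. These levels came from 36, 25 and 32 counts in sham and from 465, 4243 and 460 counts in ischemia. In edgeR the log2 fold change amounted to 5.66 ± 1.06 (SE, n = 3 per group; adjusted p 0.0394). Ischemia replicate 2 carried 82.4% of the FPKM summed over the ischemia libraries, and without it the log2 fold change fell to 3.87 (edgeR adjusted p 0.0234). With limma on log2(FPKM + 1) Cxcr2 did not pass (adjusted p 0.0581).

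Cxcr1 encodes the related receptor for a narrower set of CXC chemokines and lies 32230 bases from Cxcr2, at chr9:81466332-81469274 (minus strand). It had 0 counts in all 6 libraries, which allows up to 0.0377 to 0.0438 CPM. Cxcr2 stood at 5.84, 58.7 and 6.71 CPM in the ischemia libraries, well above that limit. The limit covers counting error only and takes each count as an independent fragment, which may not hold here, so the true limit may be higher. How reads matching both genes were counted was not given in the sources used here.

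Ccr1 encodes a receptor for inflammatory CC chemokines on neutrophils, monocytes and other leukocytes. It lies at chr8:132996649-133002201 (minus strand). Sham samples had 2.47, 1.32 and 2.56 FPKM and ischemia samples 12.2, 101 and 28.1 FPKM, so that every ischemia library lay above every sham library. The fitted log2 fold change of Ccr1 was 4.36 ± 0.79 (SE; edgeR adjusted p 0.0378), or 3.25 (0.0311) without ischemia replicate 2. Per length, the sham level of Ccr1 was above that of Cxcr2, with mean FPKM of 2.11 ± 0.69 and 0.303 ± 0.064 (SD, n = 3).

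Cx3cr1 encodes the receptor for fractalkine and marks patrolling monocytes, tissue macrophages and some lymphocytes. It lies at chr8:128740756-128754514 (minus strand). Levels of 0.719, 0.357 and 1.16 FPKM in sham stood against 0.908, 5.09 and 2.10 FPKM in ischemia. Ischemia replicate 1 fell inside the sham range, so the groups overlapped. The estimate of 1.77 ± 0.69 (log2 fold change and SE) had a 95% interval from 0.12 to 3.42 and did not pass (edgeR adjusted p 0.135, unadjusted p 0.0390). Without ischemia replicate 2 it was 1.03 (edgeR adjusted p 0.324).

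Fpr1 encodes the receptor for formylated peptides of bacteria and mitochondria and lies at chr1:59765835-59767042 (plus strand). It had 174 counts in ischemia replicate 2 and 0 in each of the other 5 libraries, and its mean FPKM of 0.319 was under the minimum for testing. A value resting on 1 library gives no comparison between the groups. Its relative Fpr2, 33942 bases away and named after its values were seen, had 56 counts in ischemia replicate 2, 8 in sham replicate 2, 7 in ischemia replicate 3 and 0 elsewhere.

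Itgam encodes the alpha chain of Mac-1 (CD11b). It was present at 0.707, 0.779 and 0.846 FPKM in sham, relative to its mean the narrowest spread of the tested receptors, and at 6.27, 23.7 and 11.6 FPKM after ischemia. All ischemia samples were above all sham samples, with a log2 fold change of 4.03 ± 0.49 (SE; edgeR adjusted p 0.0272), or 3.48 (0.0234) without ischemia replicate 2. The annotated gene, chr1:199495298-199623960 (plus strand), encloses Itgax, which encodes another integrin alpha chain on the same strand. How reads of the shared stretch were assigned was not given in the sources used here, so both values are uncertain to that extent.

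Itgb2 encodes the beta chain (CD18) that Itgam and the other leukocyte alpha chains share, and lies at chr20:11777783-11815647 (minus strand). Sham libraries gave 2.78, 2.53 and 3.74 FPKM, and ischemia libraries 22.5, 96.2 and 54.9 FPKM, without overlap. It was the receptor with the highest mean level in both groups. Itgb2 rose by 4.16 ± 0.53 (log2 and SE; edgeR adjusted p 0.0272), or by 3.66 (0.0278) without ischemia replicate 2.

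Trem1 lies at chr9:14727976-14809447 (minus strand). Its sham levels of 0.296, 0.327 and 0.533 FPKM compared with 4.48, 89.8 and 11.7 FPKM after ischemia, and the groups did not overlap. As a ratio of highest to lowest, the ischemia libraries spanned the widest range of the tested receptors, and ischemia replicate 2 carried 84.8% of their summed FPKM. Trem1 rose by 6.33 ± 1.25 (log2 and SE; edgeR adjusted p 0.0430), the most of the set, or by 4.34 (0.0307) without ischemia replicate 2. With limma on log2(FPKM + 1) Trem1 did not pass (adjusted p 0.0573).

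**Figure D2:**
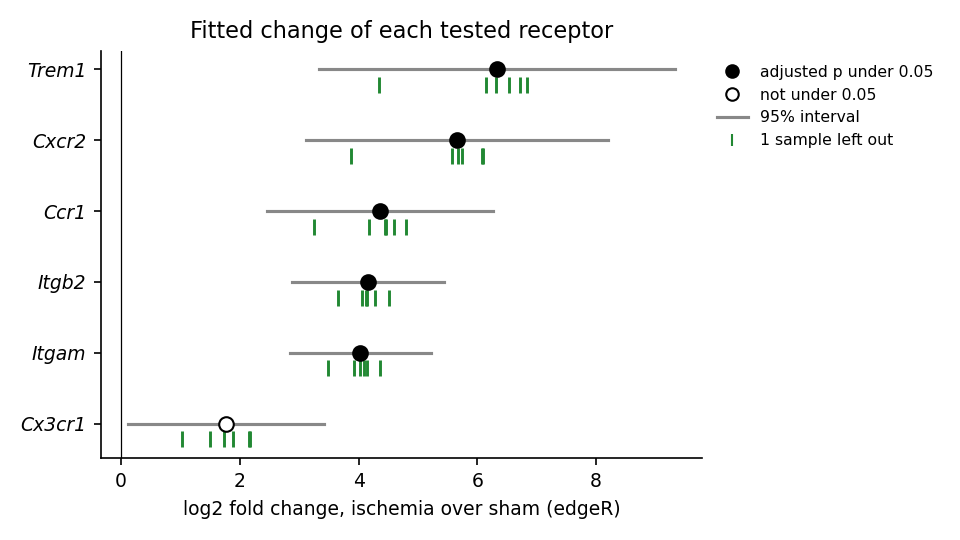
Fitted log2 fold change of each tested receptor (edgeR, ischemia over sham) with its 95% interval, and below each the values of the 6 fits that left out 1 sample. Every interval lies above 0, that of Cx3cr1 from 0.12, and the lowest of the values without 1 sample belongs to the fit without ischemia replicate 2.

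The order of the levels differed between the groups. In sham the mean FPKM ran from Itgb2 (3.02 ± 0.64, SD, n = 3) over Ccr1, Itgam, Cx3cr1 and Trem1 to Cxcr2. In that order Ccr1 and Itgam were the only neighbours whose ranges did not overlap. In ischemia the order was Itgb2 (57.9 ± 36.9), Ccr1 (47.0 ± 47.1), Trem1 (35.3 ± 47.3), Cxcr2 (17.4 ± 22.1), Itgam (13.9 ± 8.95) and Cx3cr1 (2.70 ± 2.16), and only Itgam and Cx3cr1 did not overlap. The places of Trem1 and Cxcr2 above Itgam rested on ischemia replicate 2, without which the means were 8.95 FPKM for Itgam, 8.08 for Trem1 and 4.59 for Cxcr2. Cxcr2 exceeded Itgam in 1 of the 3 ischemia libraries. Cxcr2 was below Cx3cr1 in every sham library and above it in every ischemia library.

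Whether pairs of receptors changed unequally was tested on log2 ratios of FPKM (each + 0.1) within samples. Of 7 pairs planned, the 4 with Cxcr1 or Ccr2 had no value, and p was adjusted over the other 3. The log2 ratio of Cxcr2 to Cx3cr1 was -0.86, -0.46 and -1.56 in sham and 2.12, 3.05 and 1.19 in ischemia. That is a difference of 3.08, and the groups did not overlap (two-sided exact permutation p 0.1, adjusted 0.15). The log2 ratio of Trem1 to its adaptor Tyrobp rested at -5.81, -5.84 and -5.60 in sham and at -4.79, -2.85 and -4.24 in ischemia, a difference of 1.79 (exact permutation p 0.1, adjusted 0.15). With a pseudocount of 1 this difference was 0.42. For the Mac-1 chains Itgam and Itgb2 the difference was -0.21, and the groups overlapped (exact permutation p 0.5). With a pseudocount of 1 it was -0.77 (exact permutation p 0.1), and without 1 sample it ranged from -0.32 to -0.095. With 3 samples against 3 no p below 0.1 can be reached, so none of these could pass 0.05.

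The receptors were also set against Ptprc, which encodes the leukocyte antigen CD45, as a description chosen after the values were seen. The FPKM of Cxcr2 per FPKM of Ptprc was 0.242, 0.462 and 0.217 in sham and 1.84, 1.48 and 1.51 in ischemia. On this scale ischemia replicate 2 no longer stood apart for Cxcr2. The ratio of Trem1 to Ptprc was 0.204, 0.654 and 0.354 in sham and 1.93, 3.09 and 3.59 in ischemia, and that of Ccr1 was 1.70, 2.63 and 1.70 against 5.27, 3.46 and 8.62. For Itgam and Itgb2 the groups overlapped, with ischemia replicate 2 inside the sham range for each. The ratio of Cx3cr1 to Ptprc was 0.494, 0.713 and 0.769 in sham and 0.390, 0.175 and 0.645 in ischemia, and the groups overlapped. Set against the summed FPKM of 6 pan-leukocyte genes, the 5 receptors other than Cx3cr1 were higher in every ischemia library than in every sham library. That sum rose 4.52-fold between the group means, less than each of these 5 receptors. The share of all tested genes without overlap on this scale, or per FPKM of Ptprc, was not computed. Cd48, 1 of those 6 genes, made up 38.8 to 55.2 FPKM of a sham sum of 79.9 to 112. Without it the 5 still did not overlap, and Cx3cr1 was lower in every ischemia library. The receptors were set against the summed FPKM of the neutrophil markers as well. That sum itself rose 99.5-fold between the group means, so a gene that rises less tends toward a lower share of it. These shares are a description only, and the share of all tested genes that fall on this scale was not computed. Ccr1 was 18.3%, 4.33% and 15.7% of that sum in sham and 0.847%, 2.69% and 3.46% in ischemia. Itgam, Itgb2 and Cx3cr1 were also lower in every ischemia library on that scale, and Cxcr2 and Trem1 overlapped.

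**Figure D3:**
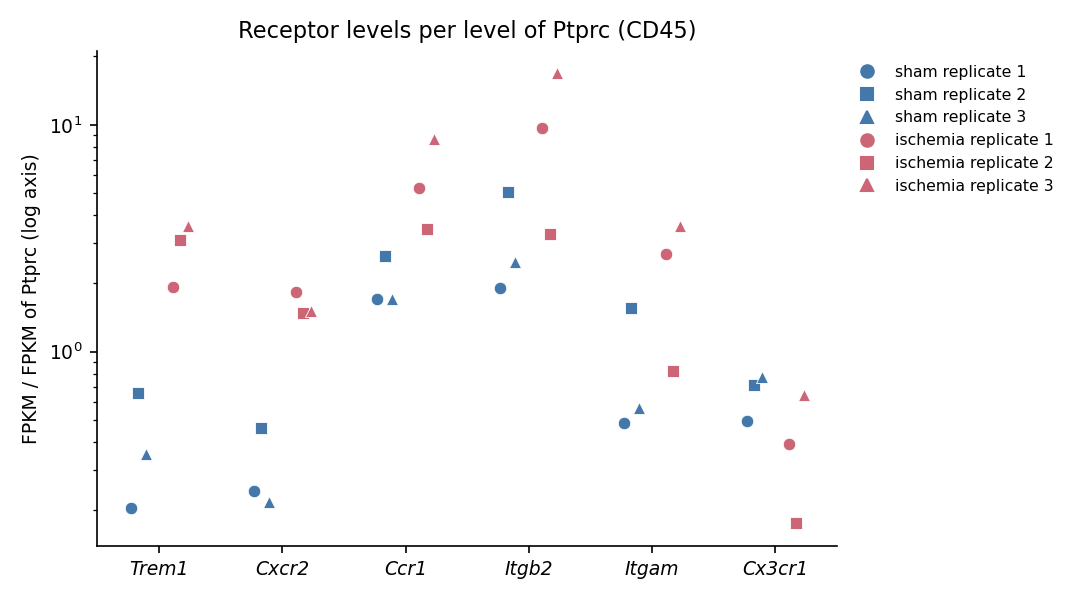
FPKM of each tested receptor divided by the FPKM of Ptprc in the same sample, on a log axis, with 1 point per sample. Trem1, Cxcr2 and Ccr1 have ischemia points above all sham points, while Itgb2, Itgam and Cx3cr1 overlap.

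Marker genes of the cells that could carry these receptors moved in the same libraries. Their counts stand beside 5.18% of all tested genes higher and 1.53% lower. Of 10 tested neutrophil markers 7 were higher in ischemia by edgeR, of which 4 reached the minimum for testing only through ischemia, and 6 were higher without ischemia replicate 2. The summed FPKM of the neutrophil list was 13.5 to 30.4 in sham and 811 to 3733 in ischemia. S100a8, S100a9 and Lcn2 made up most of each sum. They stood at 216, 242 and 952 FPKM in ischemia replicate 1 and at 1176, 2224 and 137 FPKM in ischemia replicate 2. Lcn2 was thus lowest among the ischemia libraries in replicate 2, where the receptors were highest. Among the defining neutrophil genes Retnlg, Elane and Ngp had 0 counts in every sham library, and Ltf had 0 counts in all 6. Of 9 tested monocyte markers 4 were higher, of which 1 reached the minimum for testing only through ischemia, or 3 without ischemia replicate 2, with a sum of 112 to 223 in sham and 842 to 5159 in ischemia. Lyz2 alone made up most of each monocyte sum, with 123, 83.5 and 173 FPKM in sham and 746, 4747 and 1477 FPKM in ischemia. Of 6 pan-leukocyte genes 2 were higher, with 79.9 to 112 against 172 to 789. Mpo, a neutrophil granule enzyme named after its values were seen, had 0, 119 and 808 counts in sham and 0, 4 and 0 in ischemia and did not pass (edgeR adjusted p 0.0993). The part of these markers in the receptor result was not tested.

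Markers of other cell types were counted in the same way, again beside 5.18% of all genes higher and 1.53% lower. Of 9 tested markers of resident macrophages 1 was higher, or 0 without ischemia replicate 2, and their sum of 191 to 272 in sham overlapped that of 185 to 236 in ischemia. Of 10 tested lymphocyte markers 1 was higher and 1 lower, and their sums of 25.1 to 36.1 in sham and 39.7 to 59.4 in ischemia did not overlap. The sums of the erythroid markers overlapped, at 3233 to 5792 in sham and 3757 to 7495 in ischemia, with 0 of 4 genes past the test. The sums of the endothelial markers overlapped too (109 to 152 and 112 to 150). Of 4 tested platelet markers 1 was lower, with overlapping sums of 27.6 to 79.4 and 64.2 to 178. Cardiomyocyte markers summed to 13761 to 18798 in sham and 5346 to 12977 in ischemia without overlap, and the lowest sum belonged to ischemia replicate 2, the library with the highest level of every tested receptor. Fibroblast markers summed to 331 to 1125 and 172 to 414, which overlapped. None of the cardiomyocyte and fibroblast markers passed the test.

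**Figure D4:**
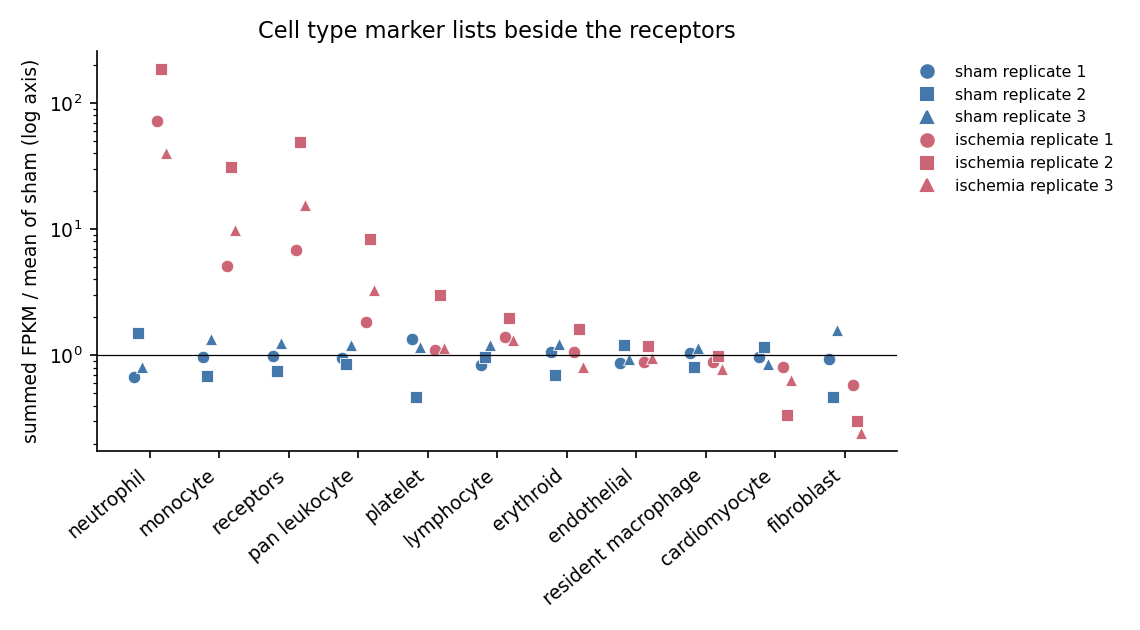
Summed FPKM of each marker list and of the receptors, divided by the mean of the sham samples, on a log axis, with 1 point per sample. The receptors, like the neutrophil, monocyte, pan-leukocyte and lymphocyte lists, have all ischemia points above all sham points, and the erythroid, endothelial and resident macrophage points stay near 1.

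Ligands of these receptors were then examined from a list of 19 genes, of which 18 were tested. Of these, 10 were higher and 0 lower in ischemia by edgeR, against 5.18% of all genes higher, and the median log2 fold change was 3.82 against -0.0015 over all tested genes. The largest changes belonged to the CXC chemokines that act through Cxcr2. Cxcl3 rose by 10.04 ± 1.53 (log2 and SE; edgeR adjusted p 0.0303), from 8, 14 and 6 counts in sham to 1499, 28460 and 3222 in ischemia. Cxcl2 rose by 8.96 ± 1.53 (edgeR adjusted p 0.0361) and Cxcl6 by 8.01 ± 0.99 (0.0272). Without ischemia replicate 2 the log2 fold changes were 7.96 for Cxcl3, 6.58 for Cxcl2 and 7.90 for Cxcl6, and 9 ligands were higher. Of the 10 ligands, 4 reached the minimum for testing only through ischemia, these 3 chemokines among them. Ccl2, the main ligand of Ccr2, rose by 5.92 ± 0.79 (edgeR adjusted p 0.0278), or by 5.19 without ischemia replicate 2, from a mean FPKM of 6.43 to 431.

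Other ligands, chosen after their values were seen, differed in direction. Cx3cl1, the fractalkine ligand of Cx3cr1, was at 17.4, 23.3 and 20.2 FPKM in sham and 12.9, 5.89 and 8.32 in ischemia. All ischemia libraries were lower, as for 15.0% of all tested genes, but the log2 fold change of -1.27 ± 0.36 (SE) did not pass (edgeR adjusted p 0.0791). Cx3cl1 did pass with DESeq2 (adjusted p 0.0101) and without ischemia replicate 1 (-1.63, edgeR adjusted p 0.0337). Icam1, the endothelial ligand of Mac-1, rose by 1.32 ± 0.27 (edgeR adjusted p 0.0450; 0.0512 with total-count scaling and 0.0541 without a filter), while Icam2 had -0.35 (0.253). Pglyrp1, a neutrophil granule protein that can engage Trem1, was at 0.46, 0.48 and 0.44 FPKM in sham and 4.45, 44.5 and 3.10 in ischemia (log2 fold change 5.02, edgeR adjusted p 0.0510). Pglyrp1 did pass without ischemia replicate 1 (edgeR adjusted p 0.0283) or ischemia replicate 2 (2.95, 0.0310), with a minimum mean FPKM of 5 (0.0441) and with limma on log2(FPKM + 0.1) (0.0494). With a sham mean of 0.459 FPKM, Pglyrp1 reached either minimum for testing only through ischemia, so its inclusion was not independent of the difference. Anxa1, a ligand of formyl peptide receptors, overlapped between the groups (log2 fold change 0.63, edgeR adjusted p 0.349, or 0.063 without ischemia replicate 2).

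Of 25 listed signalling proteins 24 were tested, and 8 were higher and 0 lower in ischemia by edgeR, or 7 higher without ischemia replicate 2, against 5.18% of all genes higher. All 24 had a log2 fold change above 0, as did 6968 of all 13964 tested genes, with a median of 1.26. Fgr, a Src-family kinase of myeloid cells that acts below integrins, rose by 4.01 ± 0.53 (SE; edgeR adjusted p 0.0272), or by 3.37 without ischemia replicate 2. Tyrobp, the adaptor of Trem1, rose by 3.56 ± 0.60 (0.0359 in edgeR), from 22.1, 24.4 and 30.6 FPKM to 127, 651 and 223, or by 2.73 without ischemia replicate 2. Pik3r5, a regulatory subunit of the phosphoinositide kinase that G protein-coupled receptors engage, rose by 2.71 ± 0.56 (edgeR adjusted p 0.0452). Pik3r5 did not pass without ischemia replicate 2 (1.98, edgeR adjusted p 0.0505), with total-count scaling (0.0516), without a filter (0.0514) or with limma on log2(FPKM + 1) (0.0665). Gnai2 and Gnai3, inhibitory G proteins named after their values were seen, had 0.46 and 1.20 and did not pass, with 0.31 and 0.35 without ischemia replicate 2.

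Of 24 related receptors 15 were tested, and Itgax alone passed, rising by 2.93 ± 0.62 (edgeR adjusted p 0.0478), where 5.18% of all genes were higher. Itgax did not pass without ischemia replicate 2 (2.18, edgeR adjusted p 0.0608), with total-count scaling (0.0507), without a filter (0.0541) or with limma on log2(FPKM + 1) (0.0588). Trem3 (3.99, edgeR adjusted p 0.0906) and Treml2 (3.06, 0.110) had large values that did not pass, although both passed with DESeq2 (adjusted p 0.00160 and 0.0178) and Trem3 also without ischemia replicate 1 (edgeR adjusted p 0.0417). Without ischemia replicate 2 they had 2.41 and 1.91. With a sham mean of 0.246 FPKM, Treml2 reached the minimum for testing only through ischemia, so its inclusion was not independent of the difference. The median of the list was 1.09, with 10 of 15 above 0, beside 6968 of all 13964 tested genes. Neighbouring genes, chosen by position and named after their values were seen, had unlike values. In the Trem cluster of chromosome 9, Trem3 lies 3883 bases from Trem1, while Trem2, a receptor of tissue macrophages at a distance of 109963 bases, had a log2 fold change of -0.81 with overlapping groups (edgeR adjusted p 0.304). In the chemokine receptor cluster of chromosome 8, Ccr3, 27424 bases from Ccr1, had 0 counts in every sham library and 93, 61 and 37 in ischemia. Xcr1, at 77539 bases on the other side of Ccr1, overlapped with 25, 79 and 96 counts against 20, 138 and 41.

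**Figure D5:**
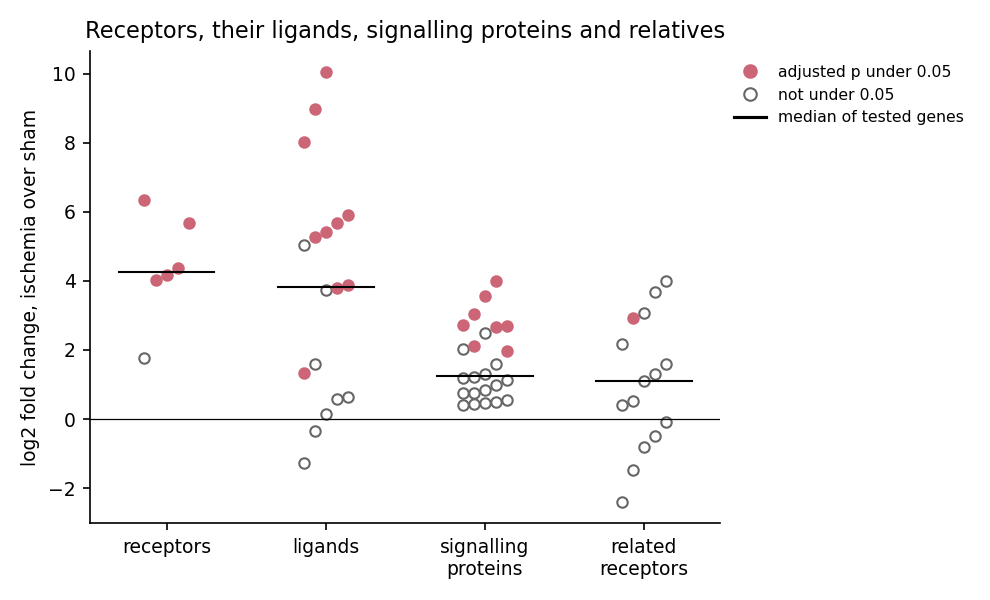
Log2 fold changes (edgeR, ischemia over sham) of the tested receptors, ligands, signalling proteins and related receptors, with 1 point per gene and a bar at the median of each list. Filled points passed an adjusted p of 0.05, which holds for 5 receptors, 10 ligands, 8 signalling proteins and 1 related receptor.

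Likeness of pattern was measured as the root mean square difference, over the 6 samples, of log2(CPM + 0.5) centred on each gene's mean. Among the tested receptors the Mac-1 chains Itgam and Itgb2 were nearest to each other, at 0.18 on the log2 scale. Pairs without Cx3cr1 differed by at most 0.75, and pairs with Cx3cr1 by 1.32 to 1.69. Outside the set, the genes nearest to the mean pattern of the 6 tested receptors were Bcl2a1 (0.14), an anti-apoptotic gene of leukocytes, Napsa (0.17), an aspartic protease, Itgb7 (0.18), a leukocyte integrin beta chain, Tyrobp (0.19) and F2rl2 (0.21), a protease-activated receptor. The single nearest gene was Tnfaip6 for Cxcr2 (0.21), the lysozyme gene Lyz2 for Ccr1 (0.16), Clec4e, a C-type lectin receptor, for Trem1 (0.16), and Cd300lb, a myeloid surface receptor, for both Itgam (0.11) and Itgb2 (0.19). For Cx3cr1 it was Idi1 (0.14), an enzyme of isoprenoid synthesis.

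Since most of the tested receptors moved together, their promoters were searched for letters bound by myeloid transcription factors. The RefSeq table of the GRCr8 build held promoters of 8 of the 9 genes, all but Itgb2, and the 250 bases before each start were read on both strands. AGGAAGT, for PU.1 and other ETS factors, was in 0 of the 8 and in 7.08% of 33469 promoters. TTGCNNAA, for C/EBP factors, was in those of Itgam and Ccr2 and in 9.22% of all. TGTGGT, for RUNX factors, was in those of Itgam, Ccr1 and Cx3cr1 and in 14.5% of all. The 3 promoters with the RUNX letters are shown because they belong to receptors that rose and to the one that did not pass. They lie at chr1:192089342-192089591 (Itgam, plus strand), chr8:132439267-132439516 (Ccr1, minus strand) and chr8:128677067-128677316 (Cx3cr1, minus strand), 5′ to 3′ along the gene, with matched letters on either strand in capitals and no overlap between matches.
Itgam: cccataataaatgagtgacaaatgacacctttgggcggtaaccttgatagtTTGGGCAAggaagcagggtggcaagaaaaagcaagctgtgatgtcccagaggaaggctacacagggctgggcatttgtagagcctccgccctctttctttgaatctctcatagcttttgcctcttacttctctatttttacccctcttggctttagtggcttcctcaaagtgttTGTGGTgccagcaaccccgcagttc
Ccr1: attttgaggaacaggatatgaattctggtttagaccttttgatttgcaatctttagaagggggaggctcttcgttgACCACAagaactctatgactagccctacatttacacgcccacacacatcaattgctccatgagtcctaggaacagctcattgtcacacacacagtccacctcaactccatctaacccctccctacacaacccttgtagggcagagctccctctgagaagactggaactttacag
Cx3cr1: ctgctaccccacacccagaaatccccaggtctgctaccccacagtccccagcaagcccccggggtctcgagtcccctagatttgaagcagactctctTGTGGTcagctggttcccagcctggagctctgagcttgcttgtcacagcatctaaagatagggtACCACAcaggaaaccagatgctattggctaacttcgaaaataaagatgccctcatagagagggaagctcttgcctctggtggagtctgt
In Itgam the first capitals, 199 bases before the start, are the C/EBP letters read on the opposite strand, and the second, 25 bases before it, are the RUNX letters. Ccr1 holds the RUNX letters on the opposite strand 174 bases before its start. Cx3cr1 holds them at 153 bases on its own strand and at 89 bases on the opposite strand. A match describes letters only, and the promoters of Cxcr2 and Trem1, whose log2 fold changes of 5.66 and 6.33 were the highest of the set, held none of the 3 motifs in this window.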

How the data were processed

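Total RNA of rat myocardium was sequenced by the authors with a strand-aware library kit. The submitters' processing notes name STAR and HTSeq, and versions, strand setting and genome build are not given in the sources used here. The deposited table held raw read counts per Ensembl gene, not normalized, and FPKM values made by the authors, in which a gene with 0 counts stands at 0.0001. In every library more genes had a count of 4 (370 to 451) than of 3 (153 to 183) or 5 (91 to 111), so a count may not be 1 independent fragment.

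The 13964 genes whose FPKM averaged 0.5 or more across all 6 samples were compared on the counts with the quasi-likelihood test of edgeR 4.0.16 in R 4.3.3, without covariates and with trimmed mean of M-values scaling. Two-sided p-values were corrected over all these genes (Benjamini-Hochberg), with 0.05 as the threshold. The SE was derived from the F statistic. Ratios used exact permutation tests in SciPy 1.17.1, and a limit for 0 counts used 3 counts. The study states no model for these data. The tests were run on simulated data first. Alternatives were other scalings, DESeq2 1.42.0, limma 3.58.1, other filters, a replicate block and leaving out each sample. Nothing in the labels says that samples came from separate animals, so p-values measure the spread between these samples only.

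The receptors and lists were chosen with earlier results of these data known. By rule, named genes were the receptors, the genes nearest in pattern to each and to their mean, and the 4 tested genes with the largest absolute log2 fold change of each of 3 lists (ligands, signalling proteins, related receptors). Placeholder names were passed over. Further genes of the lists, Ptprc and Cd48 used as scales, and chromosomal neighbours were named after their values were seen. Some genes that this rule names are not reported here.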

Additional observations from a re-analysis of the deposited data

How the results depend on the processing

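The log2 fold change of each tested receptor was positive under every alternative in which it was tested, and Cx3cr1 passed under none. With limma on log2(FPKM + 1) 3 receptors passed (all that had passed but Cxcr2 and Trem1), 657 of all genes were higher and 15 pathway genes (ligands, signalling proteins and related receptors) were higher. With DESeq2 4 receptors passed and Cxcr2 had no p-value, and 2071 genes and 36 pathway genes were higher and 3 pathway genes lower, against 723, 19 and 0 in edgeR. Genes lower in ischemia numbered 214 in edgeR, 1742 with DESeq2, 83 with total-count scaling and 93 without a filter. Without a filter 5 of 7 tested receptors passed, with Fpr1 not among them, and 14 pathway genes were higher. Over the 6 fits that each left out 1 sample, receptors ranged from 0 to 5, all genes higher from 0 to 1490, pathway genes higher from 0 to 30 and lower from 0 to 3. Without ischemia replicate 2 462 genes were higher and 109 lower, and without ischemia replicate 1 1490 and 1115. In the 4 edgeR fits with 0 calls, 3020 to 3809 genes had an unadjusted p under 0.05. The cause was not tested.

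With the replicate number as a block, edgeR gave 0 receptors, 0 genes higher and 0 pathway genes, with 3349 genes and 5 receptors at an unadjusted p under 0.05. Same-numbered samples had correlations of deviations of -0.056, -0.094 and -0.20 and nothing in the labels pairs them, so the samples share only a number. Permuted within replicate numbers, the ratio of Cxcr2 to Cx3cr1 (difference 3.08) had an exact permutation p of 0.25, the smallest that block allows. The direction of the 3 ratios was the same under every alternative run, but with a pseudocount of 1 the difference for Itgam to Itgb2 was -0.77 (exact permutation p 0.1) and for Trem1 to Tyrobp 0.42 (exact permutation p 0.7). The ratio of Trem1 to Tyrobp ranged from 1.23 to 2.20 without 1 sample. Depth limits Cxcr1 and Fpr1 only to the floor of 3 counts.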
